A study of Homo sapiens with 18 samples.

Results

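The ATP-binding cassette (ABC) family was followed as the 45 protein-coding genes whose symbol is ABC, a subfamily letter from A to G and a number, out of 58825 genes counted in every library. Subfamily A had 12 members, B had 9, C had 11, D had 4, E had 1, F had 3 and G had 5. Within the family the symbol alone chose them, with no measured value. TAP1, TAP2 and CFTR, which belong to the same protein family under other names, are therefore outside the 45, as is the pseudogene ABCC13.

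The cells were OVCAR-3, an established human line of high-grade serous ovarian cancer. Their RNA was sequenced with and without 2 inhibitors of the bromodomain and extra-terminal (BET) proteins. Cells in stripped medium received the vehicle DMSO, 1 µM i-BET858 or 1 µM i-BET151 for 4 or 24 h, with 3 replicate libraries in each of the 6 groups. All groups share the 1 cell line, and both drugs at a time point were set against the same 3 DMSO libraries, so the effects of the 2 drugs are not independent of each other. The libraries held 27323969 to 46299994 counts (median 32267434), and the replicate 3 library of each group had fewer genes with a count (17817 to 20642) than the others (23674 to 24947). All 10 epithelial ovarian markers looked at were present in every library, PAX8 at 387 to 612 CPM (counts per 1000000 counts of the library), whereas the sum over 10 markers of blood, vessel, stromal and liver cells was 22.9 to 53.3 CPM, most of it COL1A1. The summed epithelial markers moved between groups, from 8838 to 10287 CPM in DMSO to 11895 to 12447 under i-BET858 at 4 h, and from 8910 to 10362 to 7143 to 7500 under i-BET858 and 7054 to 7531 under i-BET151 at 24 h, and the part of this in the results for the family was not tested.

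ABC proteins use ATP to move molecules across membranes. Members of the B, C and G subfamilies at the cell surface expel chemotherapy drugs, which is why ABCB1 (P-glycoprotein), ABCC1 (MRP1) and ABCG2 (BCRP) are followed in ovarian cancer. Subfamily A and part of G carry sterols and phospholipids. Subfamily D, apart from the lysosomal ABCD4, feeds fatty acids into peroxisomes. Several B members sit in mitochondria or lysosomes, and subfamilies E and F lack a membrane part and act on ribosomes and translation.

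The start regions of ABCB1 and ABCD2 are printed because these genes rose most from levels at or near 0. Start sites were taken from RefSeq (GRCh38.p14), where 35 of the 45 members had 53 listed starts, and the 250 bases before each start were searched on both strands for the GC box (letters GGGCGG), the box read as CCAAT, the TATA box with TATAAA, the E box with CACGTG, the cAMP response element with TGACGTCA, the core of the antioxidant response element with TGACNNNGC and the DR4 direct repeat, a pair of AGGTCA half-sites spaced by 4 bases, to which liver X receptors bind. Capitals mark matches on either strand, sequences run 5′ to 3′ on the strand of the gene, and bases inside annotated exons are left out. The 3 stretches are the region before the upstream ABCB1 start at chr7:87713324-87713545 (minus strand), the region before the downstream ABCB1 start at chr7:87601079-87601134 (minus strand, 194 bases next to the start left out), and the region before the first ABCD2 start at chr12:39619804-39620053 (minus strand).
ABCB1 upstream: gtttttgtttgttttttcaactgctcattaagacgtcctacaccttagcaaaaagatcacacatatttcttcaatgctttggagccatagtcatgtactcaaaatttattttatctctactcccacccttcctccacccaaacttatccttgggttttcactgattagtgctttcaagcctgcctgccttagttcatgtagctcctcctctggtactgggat
ABCB1 downstream: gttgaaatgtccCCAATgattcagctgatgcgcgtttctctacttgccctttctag
ABCD2: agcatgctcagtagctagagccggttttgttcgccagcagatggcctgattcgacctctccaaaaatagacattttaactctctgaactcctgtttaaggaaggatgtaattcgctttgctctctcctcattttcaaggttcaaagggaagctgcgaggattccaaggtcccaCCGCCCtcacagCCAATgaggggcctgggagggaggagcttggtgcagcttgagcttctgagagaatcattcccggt

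The upstream ABCB1 window held none of the 7 motifs. The downstream one held CCAAT at 2 places, 238 and 79 bases before the start, of which the nearer lies in an annotated exon and is not printed. ABCD2 had a GC box 77 bases and a CCAAT 65 bases before its first start, and the window of its second start held none of the 7. GGGCGG occurred in 25 of 53 member windows (47.2%) against 42.6% of all 35116 windows, CCAAT in 11 (20.8%) against 32.0%, and CACGTG in 9 (17.0%) against 6.34%. TATAAA was in 6 (11.3%) against 10.7%, TGACNNNGC in 9 (17.0%) against 10.9% and TGACGTCA in 1 (1.89%) against 1.65%. The DR4 repeat was in 0 member windows and in 5 windows of all genes. Only exact matches were counted. ABCG1, ABCC1, ABCC3, ABCB4 and ABCB5 were among the members without a window and so were not searched. The 0 therefore does not show that members lack sites for liver X receptors. The windows of members with enough counts to be tested held a median of 18.5 CG dinucleotides (34 windows, 24 genes), those of members tested at neither time 5.0 (19 windows, 11 genes) and all windows 11.0. The windows of ABCB1 (1 and 12 CG) and ABCD2 (7 and 0) lay below the median of tested members. The 12 was above the median of all windows. Among other tested members, ABCA10 (1 and 2), ABCA12 (2 and 1) and ABCC2 (1) were also low.

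Levels between genes were compared as RPKM, the CPM divided by the kilobases of annotated exon. In DMSO, 16 of the 45 members lay above 1 RPKM at 4 h and 16 at 24 h. ABCF1, a partner of the translation initiation machinery, stood highest at 36.8 ± 1.66 RPKM (SD, n = 3) at 4 h and 30.5 ± 4.2 at 24 h. ABCE1, which recycles ribosomes, had 21.5 ± 2.34 and 18.9 ± 1.05, and ABCF3 had 19.1 ± 1.5 and 17.0 ± 1.48. The libraries of ABCE1 and ABCF3 overlapped at 4 h, while those of ABCF1 lay above both. Below these lay ABCD3 of the peroxisome (8.91 ± 1.34) and ABCC1 (7.05 ± 1.80), with overlapping libraries. ABCC1 was the most abundant of the efflux members, ahead of ABCC10 (2.44 ± 0.376), ABCC4 (1.82 ± 0.181), ABCC5 (1.14 ± 0.329) and ABCC3 (0.823 ± 0.326). ABCG2 (0.0327 ± 0.0146) and ABCB1 (0.0112 ± 0.0121) lay far down the order, at ranks 31 and 36 of 45.

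**Figure D1:**
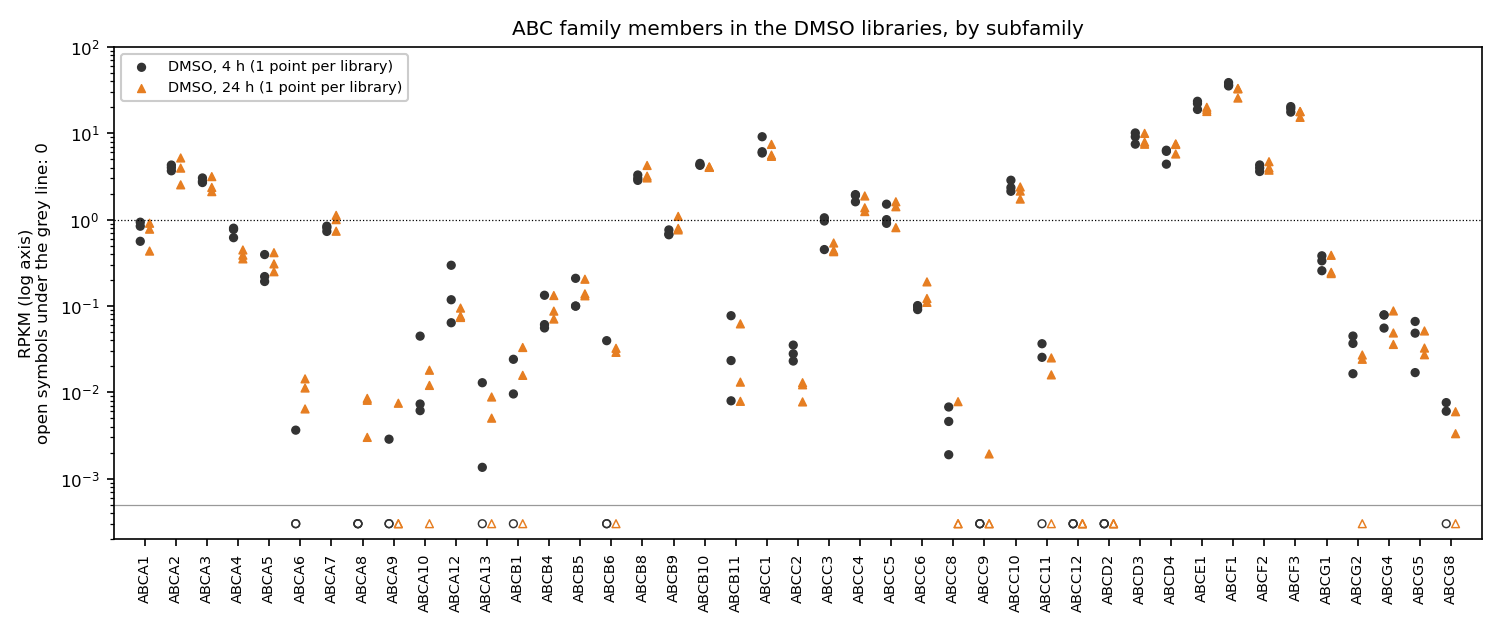
Level of members of the family in the 6 DMSO libraries, in RPKM on a log axis, ordered by subfamily (circles, 4 h; triangles, 24 h; each point is a library; open symbols under the grey line are libraries at 0; dotted line, 1 RPKM). ABCF1, ABCE1 and ABCF3 lie highest, and ABCD2 and ABCC12 are at 0 in all 6.

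Enough counts for the test were reached by 32 members at 4 h and 31 at 24 h. ABCA10 and ABCC2 were tested at 4 h only and ABCC8 at 24 h only. ABCB1, ABCC2, ABCD2 and ABCC8 reached the level of the filter in treated libraries alone. ABCB5 at 24 h reached it in DMSO libraries alone, and ABCB4 at 24 h in the 3 DMSO libraries and 1 of 6 treated ones. Tested at neither time were 12 members, with at most 20 counts in any library: ABCA6, ABCA8, ABCA9, ABCA13, ABCB6, ABCB11, ABCC9, ABCC11, ABCC12, ABCG2, ABCG5 and ABCG8. Of these, ABCB6 shares 54.6% of its annotated exon bases with a second coding gene on the same strand, and the counting of STAR leaves out reads that overlap 2 genes, so its counts (at most 16) can understate its level. The bile salt pump ABCB11 had 2, 3 and 15 counts in DMSO at 24 h and 0 in all 6 treated libraries, too few to test.

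Under i-BET858 at 4 h, 12 of the 32 tested members changed (adjusted p under 0.05), 9 higher and 3 lower, where 30.8% of all 17192 genes tested were called (14.5% higher, 16.3% lower). Of the 12, 7 changed at least 2-fold (14.1% of all genes). ABCB1, ABCC2 and ABCD2 are in the 12 and in the 7. They entered the test through treated libraries alone, so they lend these counts no support, and they are in the median as well. The members' median log2 fold change was 0.43 against 0.02 over all genes tested. Under i-BET151 at 4 h, 7 members changed, 6 higher and 1 lower, beside 16.2% of all genes (7.81% higher, 8.43% lower), 4 of them at least 2-fold (7.10% of all genes), and the median was 0.16 against 0.01. ABCB1 and ABCD2 are in the 7 and in the 4, with the same limit. A fit that holds the replicate number constant (replicate block) called 13 for i-BET151 at 4 h, 10 higher and 3 lower, beside 32.7% of all genes in that fit. Without i-BET151 replicate 1 or without i-BET151 replicate 2 the count was 4, beside 9.60% and 9.44% of all genes.

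At 24 h, i-BET858 changed 21 of 31 tested members, 14 higher and 7 lower, beside 41.7% of all 17157 genes (20.5% higher, 21.3% lower), 14 of them at least 2-fold (18.8% of all genes), with a median of 0.29 against −0.01. For i-BET151 the count was 19, 13 higher and 6 lower, beside 33.8% (17.2% higher, 16.6% lower), 10 of them at least 2-fold (13.7% of all genes), with a median of 0.35 against 0.00. For both drugs ABCB1 and ABCD2 are among the higher and ABCB5 among the lower. ABCB1 and ABCD2 entered the test through treated libraries alone and ABCB5 through DMSO alone, so they lend these counts no support. The medians hold them too, as well as ABCC8, which entered through treated libraries alone. Setting ABCD2, whose DMSO libraries were all at 0, to the fold of its treated mean over a floor of 3 counts per DMSO library left the 4 medians as they were. ABCA7, ABCB1, ABCB9, ABCD2 and ABCG1 rose in each of the 4 comparisons with DMSO and ABCE1 fell in each. The 2 drugs share their DMSO libraries, which by itself favours like directions.

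**Figure D2:**
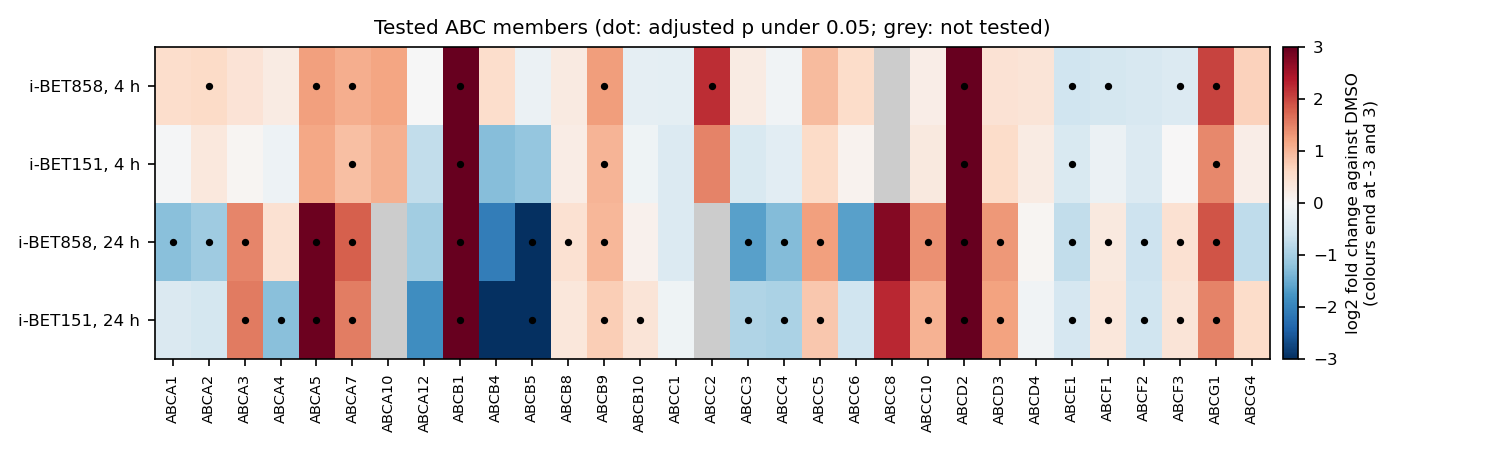
Log2 fold change against DMSO (colour, red higher and blue lower, ending at −3 and 3) for members tested at either time, in the 4 drug comparisons (rows), with a dot where the adjusted p was under 0.05 and grey where a member was not tested. Dots run through all 4 rows for ABCA7, ABCB1, ABCB9, ABCD2, ABCE1 and ABCG1.

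The efflux members of the cell surface numbered 9, of which 7 were tested at 4 h and 6 at 24 h. At 4 h i-BET858 raised 2 (ABCB1 and ABCC2) and i-BET151 raised 1 (ABCB1), beside 30.8% and 16.2% of all genes called in either direction. Both members entered the test at 4 h through treated libraries alone, as ABCB1 did at 24 h. The counts at 4 h are therefore no support for a rise of the efflux members. At 24 h each drug raised ABCB1, ABCC5 and ABCC10 and lowered ABCC3 and ABCC4, beside 41.7% and 33.8% of all genes.

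ABCB1 encodes P-glycoprotein, which pumps taxanes and many other drugs out of cells, and lies on chromosome 7 (87503017 to 87713323, minus strand, GRCh38). In the 3 DMSO libraries of 4 h it had 0.0614, 0.155 and 0 CPM, from 2, 6 and 0 counts. Under i-BET858 at 4 h it had 2.12, 4.10 and 1.33 CPM, and under i-BET151 0.937, 1.27 and 0.225. At 24 h the DMSO libraries had 0.212, 0.101 and 0 CPM. Every treated library lay above every DMSO library of its time point. The i-BET858 libraries of 24 h had 3.35, 3.14 and 1.61 CPM and the i-BET151 libraries 1.56, 2.22 and 2.68. Its log2 fold change at 4 h was 4.99 under i-BET858 (95% confidence interval 2.97 to 7.02, adjusted p = 0.00173) and 3.35 under i-BET151 (1.34 to 5.35, adjusted p = 0.0280). The later values were 4.6 (3.06 to 6.14, adjusted p = 3.76e-04) and 4.29 (2.75 to 5.82, adjusted p = 8.77e-04). With so few DMSO counts the size of these folds leans on the fit's prior count. ABCB1 entered the test at both times through its treated libraries alone, where it was high. Its adjusted p values therefore lend the rise no support of their own. The i-BET151 call at 4 h was lost without DMSO replicate 1 (adjusted p = 0.102), DMSO replicate 3 (0.0741), i-BET151 replicate 1 (0.0736) or i-BET151 replicate 2 (0.0975). Per length, ABCB1 still reached only 0.420 ± 0.148 RPKM (SD, n = 3) under i-BET858 at 24 h, where ABCC1 had 4.75 ± 0.856. Its share of the summed RPKM of the 9 efflux members went from 0, 0.146 and 0.288% in DMSO at 24 h to 1.75, 3.36 and 3.58% under i-BET858 and 1.90, 2.61 and 2.74% under i-BET151.

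ABCB4, which exports phosphatidylcholine into bile and lies next to ABCB1, had 0.430, 1.03 and 0.470 CPM in DMSO at 4 h. Under i-BET858 at 24 h it had 0.0870, 0.0833 and 0.380 CPM against 0.545, 0.673 and 1.02 in DMSO, and under i-BET151 0.0244, 0.243 and 0. No treated library of 24 h reached a DMSO library, yet the changes did not pass (−2.07 and −3.09 on the log2 scale, adjusted p of 0.139 and 0.0551). The replicate block called the latter (−3.19, adjusted p = 0.0379), and replicates 1 and 2 alone gave −2.81 (adjusted p = 0.00457) and −2.30 (0.0132), for a gene that entered the test at 24 h through DMSO, where it was high.

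ABCC1, a pump for glutathione conjugates and anthracyclines on chromosome 16 (15949138 to 16143257, plus strand), had 53.5, 51.6 and 79.8 CPM in DMSO at 4 h. Under i-BET858 at 4 h it had 39.1, 37.8 and 73.3 CPM and under i-BET151 42.2, 33.8 and 63.9. The replicate 3 library was the highest in all 6 groups, and the groups overlapped at 4 h. The later libraries had 48.8, 47.3 and 65.0 CPM in DMSO, 44.9, 33.0 and 46.8 under i-BET858, and 43.6, 47.2 and 58.7 under i-BET151. No change passed in the unblocked fit (log2 fold changes of −0.29, −0.40, −0.41 and −0.13; adjusted p of 0.504, 0.417, 0.0896 and 0.621 for i-BET858 and i-BET151 at 4 h and then at 24 h). The replicate block gave −0.33 (adjusted p = 0.0182) and −0.43 (0.00664) at 4 h, and −0.41 (0.00694) for i-BET858 at 24 h. Its neighbour ABCC6 had 0.171 to 1.54 CPM over the 18 libraries, did not pass in the fits of all groups and replicates, and has near-identical pseudogenes that could share its reads. With replicates 1 and 2 only, ABCC6 passed at 24 h (−1.37, adjusted p = 0.0169, and −1.99, adjusted p = 0.00405, from −1.62 and −0.59).

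ABCG2, the breast cancer resistance protein, had at most 8 counts in any library (0 to 0.255 CPM) and was not tested. With DMSO it had 3, 8 and 8 counts at 4 h and 5, 4 and 0 at 24 h. At 24 h it had 2, 0 and 0 counts under i-BET858 and 1, 8 and 0 under i-BET151. A library with 0 counts allows up to 3 counts, or 0.0648 to 0.110 CPM over the 18 libraries, and these limits cover counting error only.

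ABCC2, which exports conjugates into bile and carries cisplatin conjugates, had 0.276, 0.180 and 0.219 CPM in DMSO at 4 h. It had 0.839, 1.12 and 1.19 under i-BET858 and 0.555, 0.727 and 0.618 under i-BET151. All treated libraries lay above all DMSO libraries. The rise passed under i-BET858 (log2 fold change 2.21, 0.99 to 3.43, adjusted p = 0.0104) and not under i-BET151 (1.48, 0.26 to 2.69, adjusted p = 0.0983), and the i-BET858 call was lost without DMSO replicate 2 (adjusted p = 0.0508). ABCC2 entered the test at 4 h through its treated libraries alone, so its adjusted p values lend the rise no support of their own. At 24 h no library passed 0.333 CPM.

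ABCC3 and ABCC4, which export organic anions and cyclic nucleotides, fell at 24 h. ABCC3 had 4.09, 5.15 and 4.23 CPM in DMSO at 24 h, 1.85, 1.28 and 1.34 under i-BET858 and 1.71, 2.07 and 3.55 under i-BET151. All treated libraries lay below the DMSO libraries. Its log2 fold change was −1.62 (−2.34 to −0.90, adjusted p = 0.00228) and −0.90 (−1.60 to −0.20, adjusted p = 0.0499). The i-BET151 call stood at the threshold and was lost without any 1 of DMSO replicates 1, 2 and 3 and i-BET151 replicates 1 and 2 (adjusted p of 0.0773 to 0.166). ABCC4 had 11.8, 10.7 and 16.2 CPM in DMSO, 4.90, 3.58 and 7.69 under i-BET858 and 5.34, 6.51 and 8.35 under i-BET151. Again no treated library reached a DMSO library. Its log2 fold change was −1.30 (−1.95 to −0.65, adjusted p = 0.00468) and −0.96 (−1.61 to −0.32, adjusted p = 0.0265), the latter lost without DMSO replicate 3, i-BET151 replicate 1 or i-BET151 replicate 2 (adjusted p of 0.0834 to 0.0965). At 4 h neither gene passed with either drug. ABCC3 had 4.33, 10.1 and 9.27 CPM in DMSO at 4 h, wider than at 24 h.

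ABCC5, an exporter of nucleotide analogues, and ABCC10, which confers resistance to taxanes when overexpressed, rose at 24 h. ABCC5 had 18.3, 16.0 and 9.17 CPM in DMSO, 38.8, 36.9 and 28.0 under i-BET858 and 25.1, 27.7 and 23.8 under i-BET151. The replicate 3 library of ABCC5 was the lowest in all 6 groups. Its log2 fold change at 24 h was 1.22 (0.73 to 1.71, adjusted p = 0.00128) and 0.80 (0.31 to 1.28, adjusted p = 0.0175), the latter lost without i-BET151 replicate 2 (adjusted p = 0.0662). At 4 h, with 11.4, 17.2 and 10.3 CPM in DMSO against 26.7, 34.8 and 13.6 and 21.5, 26.4 and 10.4, it did not pass (0.95, adjusted p = 0.0797, and 0.57, adjusted p = 0.351) but passed under the replicate block (0.88, adjusted p = 3.73e-04, and 0.51, adjusted p = 0.0243). ABCC10 had 19.3, 17.3 and 14 CPM in DMSO at 24 h, 45.9, 44.9 and 42.5 under i-BET858 and 36.4, 32.7 and 37.4 under i-BET151. The 3 groups did not overlap, and the log2 fold change was 1.36 (1.08 to 1.64, adjusted p = 1.58e-05) and 1.05 (0.77 to 1.33, adjusted p = 1.37e-04). At 4 h, ABCC10 lay at 17.2 to 24.4 CPM in all 9 libraries and did not pass.

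**Figure D3:**
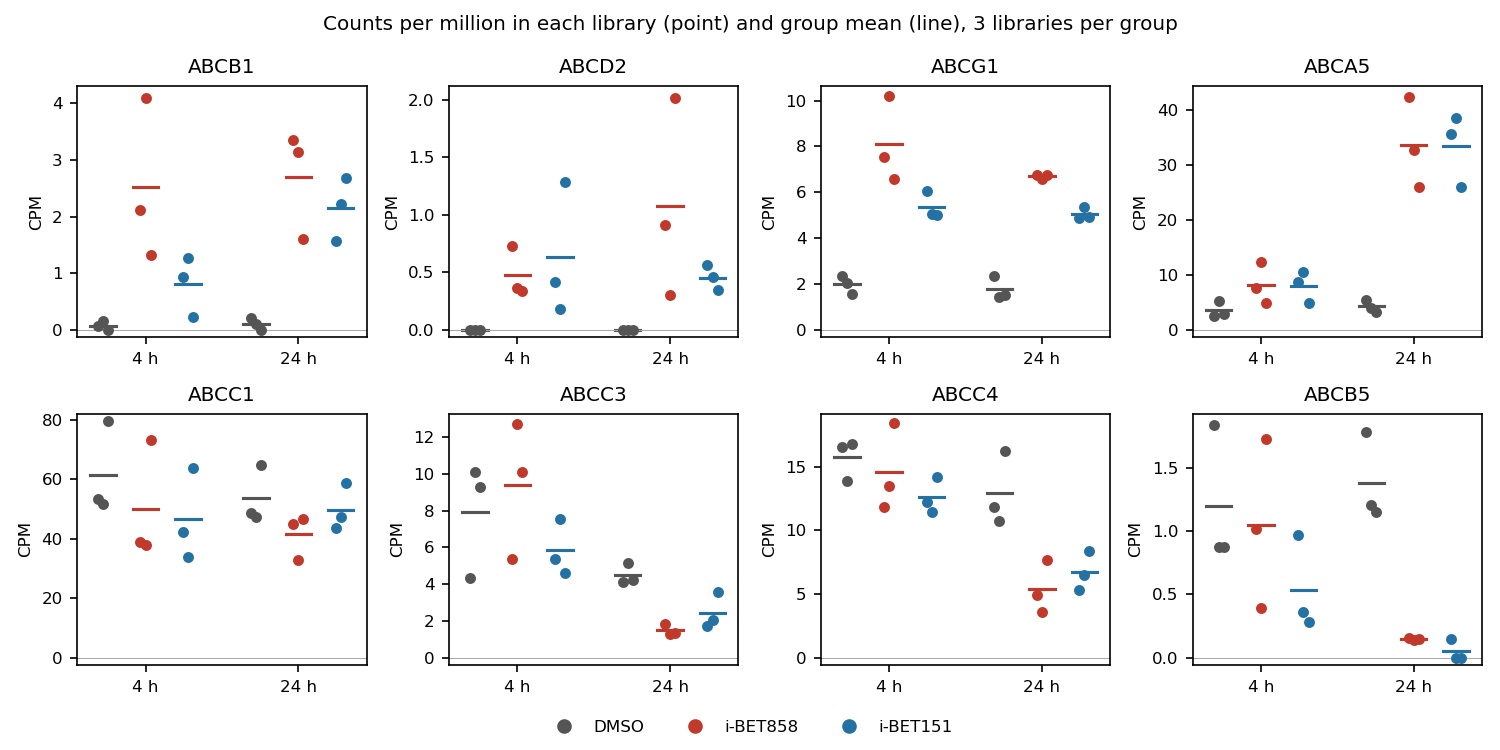
CPM of 8 members in each of the 18 libraries (points; lines are group means of 3 libraries; linear axes; grey DMSO, red i-BET858, blue i-BET151). ABCB1 and ABCD2 lie at or near 0 in DMSO, ABCG1 is raised at both times, ABCA5 is highest at 24 h, and ABCC3, ABCC4 and ABCB5 are low in the treated libraries of 24 h.

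The sterol and phospholipid exporters numbered 8, of which 6 were tested. Each drug raised ABCA7 and ABCG1 at both times, and i-BET858 lowered ABCA1 at 24 h, where 30.8% (i-BET858) and 16.2% (i-BET151) of all genes were called at 4 h and 41.7% and 33.8% at 24 h. The median log2 fold change of the 6 was 0.61 under i-BET858 and 0.09 under i-BET151 at 4 h, and −0.91 and 0.06 at 24 h. Of the negative values behind −0.91, that of ABCA1 passed and those of ABCA12, ABCB4 and ABCG4 did not.

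ABCG1, which passes cholesterol to high-density lipoprotein, lies on chromosome 21 (42199689 to 42297244, plus strand). It had 2.33, 2.04 and 1.57 CPM in DMSO at 4 h, 7.55, 10.2 and 6.59 under i-BET858 and 6.07, 5.05 and 5.0 under i-BET151. The later libraries had 2.36, 1.45 and 1.5 in DMSO, 6.77, 6.58 and 6.75 under i-BET858 and 4.86, 5.38 and 4.92 under i-BET151. The 3 groups were apart at both times, with DMSO lowest and i-BET858 highest. At 4 h the log2 fold change was 2.03 (1.47 to 2.60, adjusted p = 1.39e-04) and 1.44 (0.88 to 1.99, adjusted p = 0.00294), and at 24 h 1.88 (1.37 to 2.39, adjusted p = 9.69e-05) and 1.49 (0.98 to 1.99, adjusted p = 6.44e-04).

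ABCA1, the exporter that loads cholesterol onto apolipoprotein A-I, took another course. It had 9.52, 10.6 and 6.36 CPM in DMSO at 4 h, 13.2, 17.1 and 7.87 under i-BET858 and 11.9, 7.27 and 6.94 under i-BET151. These groups overlapped. The 24 h libraries had 10.3, 8.79 and 4.90 CPM in DMSO, 4.40, 3.22 and 2.66 under i-BET858 and 5.39, 6.69 and 5.94 under i-BET151. Of the 4 comparisons, i-BET858 at 24 h passed (−1.25, −1.88 to −0.62, adjusted p = 0.00473), with 9 of 9 pairs lower, while i-BET151 had −0.43 (−1.05 to 0.18, adjusted p = 0.269). With replicates 1 and 2 only, i-BET151 passed too (−0.70, adjusted p = 0.00530), and in replicate 3 it was above DMSO.

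ABCA7, a phospholipid transporter named in Alzheimer's disease, lies on chromosome 19 (1039997 to 1065572, plus strand). In DMSO at 4 h it had 7.0, 8.06 and 7.71 CPM, against 16.4, 16.5 and 15.2 under i-BET858 and 14.6, 16.9 and 11.4 under i-BET151. The DMSO libraries of 24 h had 10.7, 9.59 and 7.04 CPM, against 35.7, 34.1 and 28.1 and 29.3, 27.5 and 23.7. No treated library overlapped a DMSO library. ABCA7 rose by 1.08 (adjusted p = 8.55e-04) and 0.91 (0.00563) at 4 h and 1.80 (1.60e-05) and 1.54 (7.61e-05) at 24 h on the log2 scale. ABCA12, the lipid carrier of skin, and ABCG4 did not pass at either time, at 0 to 2.85 and 0 to 0.994 CPM, although ABCA12 passed under i-BET858 at 24 h with replicates 1 and 2 only (−1.52, adjusted p = 0.0348, from −1.05).

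Of the members that sit on lysosomes or lamellar bodies, all 5 were tested. At 4 h i-BET858 raised ABCA2, ABCA5 and ABCB9 and i-BET151 raised ABCB9. At 24 h both drugs raised ABCA3, ABCA5 and ABCB9, and i-BET858 lowered ABCA2. The shares of all genes called were 30.8% and 16.2% at 4 h and 41.7% and 33.8% at 24 h (i-BET858 first).

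ABCA5, found on lysosomes and late endosomes, lies at the end of a row of 5 A-subfamily genes on chromosome 17 (69244311 to 69327244, minus strand). It had 5.45, 4.04 and 3.28 CPM in DMSO at 24 h, 42.4, 32.7 and 26.0 under i-BET858 and 35.6, 38.6 and 26.0 under i-BET151. Treated libraries were thus far above every DMSO library, with folds of 7.70 and 7.71 (log2 2.94, 2.41 to 3.48, adjusted p = 6.96e-06, and 2.95, 2.41 to 3.48, adjusted p = 1.29e-05). At 4 h it had 2.52, 5.18 and 2.88 CPM in DMSO, 7.55, 12.3 and 4.88 under i-BET858 and 8.64, 10.5 and 4.8 under i-BET151. These overlapped in 1 of 9 pairs for each drug. The i-BET858 call at 4 h (1.22, 0.34 to 2.11, adjusted p = 0.0386) was lost with total library size (1.06, adjusted p = 0.0797) and without DMSO replicates 1 or 3 or i-BET858 replicates 1 or 2 (adjusted p of 0.0680 to 0.186). For i-BET151 the value was 1.17 (adjusted p = 0.0742), which passed under the replicate block (adjusted p = 8.25e-04). Of the other genes of the row, ABCA6, ABCA8 and ABCA9 had at most 9 counts in any library, and ABCA10, tested at 4 h only, had 0 to 0.590 CPM and did not pass (1.18 and 1.06). With replicates 1 and 2 only it passed (2.84, adjusted p = 0.00979, and 3.10, adjusted p = 0.00937).

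ABCA3, the lamellar body transporter of lung surfactant lipid, rose at 24 h. It had 24.6, 18.4 and 16.5 CPM in DMSO, 60.1, 52.8 and 55.9 under i-BET858 and 58.2, 57.2 and 61.3 under i-BET151. The treated libraries of both drugs lay close together, above all DMSO libraries. ABCA3 rose by 1.46 (1.15 to 1.77, adjusted p = 1.83e-05) and 1.55 (1.24 to 1.86, adjusted p = 2.31e-05) on the log2 scale. At 4 h, with 21.7, 21.0 and 23.7 CPM in DMSO against 24.4, 25.8 and 38.2 and 23.1, 22.0 and 24.3, neither drug passed (0.42, adjusted p = 0.0958, and 0.06, adjusted p = 0.866), although the replicate block called i-BET858 (0.40, adjusted p = 0.0206).

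ABCA2, an endolysosomal lipid transporter abundant in brain, moved in opposite directions at the 2 times. At 4 h it had 42.3, 46.1 and 49.3 CPM in DMSO, 65.2, 70.1 and 69.8 under i-BET858 and 61.2, 54.6 and 55.4 under i-BET151. Later it had 59.6, 45.4 and 29.1 CPM in DMSO, 23.3, 19.0 and 23.2 under i-BET858 and 31.4, 29.1 and 33.4 under i-BET151. Under i-BET858 every library was above DMSO at 4 h and below it at 24 h, and DMSO replicate 3 of 24 h lay below the other DMSO libraries. The i-BET858 change was 0.58 (0.33 to 0.83, adjusted p = 0.00266) and then −1.07 (−1.54 to −0.60, adjusted p = 0.00209). For i-BET151 it was 0.31 (adjusted p = 0.0926) and −0.53 (adjusted p = 0.0743), and the replicate block called both (0.31, adjusted p = 0.0271, and −0.50, adjusted p = 0.0327).

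ABCB9, a lysosomal peptide transporter related to TAP, rose in all 4 comparisons. It had 9.06, 10.1 and 8.87 CPM in DMSO at 4 h, 20.9, 22.4 and 23.3 under i-BET858 and 18.9, 18.2 and 20.1 under i-BET151. In the 24 h libraries it had 10.1, 10.5 and 14.5, then 20.7, 23.0 and 28.1, and 18.9, 18.6 and 21.5. No treated library overlapped DMSO. ABCB9 rose by 1.25 (adjusted p = 6.97e-05) and 1.02 (6.66e-04) at 4 h and 0.99 (0.00129) and 0.73 (0.0101) at 24 h on the log2 scale. Parts of its exons lie opposite a long non-coding RNA gene (20.7% of bases), OGFOD2 (12.5%) and ARL6IP4 (12.0%), and unless the counting used strand, reads there overlap 2 genes and would be left out of its count. ABCD4, which releases vitamin B12 from lysosomes, lay at 39.0 to 79.4 CPM and did not pass, with its replicate 3 library the lowest in all 6 groups. The replicate block called it under i-BET858 at 4 h (0.40, adjusted p = 0.00680).

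In the peroxisome, ABCD2 and ABCD3 take up fatty acids of different chain lengths. ABCD2 (chromosome 12, 39550033 to 39619803, minus strand) had 0 counts in all 6 DMSO libraries and at least 5 in each of the 12 treated ones. At 4 h it had 0.729, 0.361 and 0.341 CPM under i-BET858 and 0.417, 0.182 and 1.29 under i-BET151. At 24 h the values were 0.914, 0.305 and 2.02, and 0.561, 0.456 and 0.349. Against a floor of 3 counts per DMSO library, the mean of the ABCD2 treated libraries was at least 5.43-fold and at least 7.18-fold higher at 4 h. At 24 h it was at least 11.3-fold and at least 4.76-fold higher (i-BET858 first at both times). The adjusted p values (edgeR) were 0.00661, 0.00944, 0.00146 and 0.00535, for a gene that entered the test through its treated libraries alone. These folds leave out the spread of the treated libraries. That of i-BET151 at 4 h leans on replicate 3, with 46 counts beside 12 and 5. The treated libraries spread widely and those of the 2 drugs overlapped.

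ABCD3 rose at 24 h, with 60.5, 57.2 and 76.4 CPM in DMSO, 164, 145 and 182 under i-BET858 and 144, 163 and 148 under i-BET151. All treated libraries lay above all DMSO libraries. The increase on the log2 scale was 1.30 (1.00 to 1.60, adjusted p = 3.37e-05) and 1.20 (0.90 to 1.51, adjusted p = 9.28e-05). Per length, this brought ABCD3 from 8.45 ± 1.34 to 21.4 ± 2.41 and 19.8 ± 1.30 RPKM (SD, n = 3). Beside it, ABCE1, the second member of the DMSO order, had 18.9 ± 1.05 RPKM in DMSO and 11.6 ± 0.406 and 13.6 ± 0.542 with the drugs. At 4 h ABCD3 had 77.5, 69.9 and 57.3 CPM in DMSO, 90.2, 118 and 68.7, and 105, 110 and 82.1, which did not pass (0.44, adjusted p = 0.121, and 0.54, adjusted p = 0.0932) and passed under the replicate block (adjusted p of 0.00498 and 0.00145).

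The mitochondrial members ABCB8 and ABCB10, known for potassium transport and haem synthesis, did not pass at 4 h. At 24 h ABCB8 rose under i-BET858 (0.45, adjusted p = 0.0222) and ABCB10 under i-BET151 (0.38, adjusted p = 0.0195). The ABCB8 call was lost without DMSO replicates 1 or 2 or i-BET858 replicates 1 or 2 (adjusted p of 0.0545 to 0.0917). The ABCB10 call was lost without the filter on low counts (0.130) and without DMSO replicates 1 or 2 or i-BET151 replicate 2 (0.0646 to 0.0856). The replicate block also called ABCB8 under i-BET151 at 24 h (0.36, adjusted p = 0.0388).

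The 4 members without a membrane part, which act on ribosomes, changed by less than 2-fold throughout. ABCE1 had 147, 138 and 118 CPM in DMSO at 4 h, 86.2, 86.4 and 91.9 under i-BET858 and 105, 105 and 85.5 under i-BET151. In the 24 h libraries it had 112, 118 and 125 in DMSO, 73.5, 74.5 and 69.7, and 82.1, 88.6 and 83.9. Treated libraries were below all DMSO libraries at both times. It fell by 0.60 (adjusted p = 0.00378) and 0.45 (0.0320) on the log2 scale at 4 h and by 0.75 (9.14e-05) and 0.50 (0.00161) at 24 h. The i-BET151 call at 4 h was lost without any 1 of DMSO replicates 1 and 2 and i-BET151 replicates 1, 2 and 3 (adjusted p of 0.0637 to 0.122).

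ABCF1 and ABCF3 changed direction under i-BET858. ABCF1 had 174, 159 and 163 CPM in DMSO at 4 h, 116, 106 and 121 under i-BET858 and 144, 146 and 151 under i-BET151. In the 24 h libraries it had 149, 147 and 115 in DMSO, 175, 169 and 171, and 180, 181 and 171. The i-BET858 libraries were the lowest of the 3 groups at 4 h, and both drugs were above DMSO at 24 h. Its log2 fold change was −0.53 (adjusted p = 0.00238) and −0.17 (0.293) at 4 h and 0.29 (0.0445) and 0.35 (0.0230) at 24 h. Its i-BET858 call at 24 h was at the threshold and was lost with total library size (0.19, adjusted p = 0.230), without the filter (0.0622), with only the 2 groups (0.0720) and without any 1 library but DMSO replicate 1 (0.0654 to 0.123). The i-BET151 call was lost with total library size (0.0710) and without i-BET151 replicates 1 or 2 (0.0774 and 0.0798).

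ABCF3 had 105, 99.2 and 90.2 CPM in DMSO at 4 h, 65.1, 81.9 and 74.4 under i-BET858 and 93.8, 106 and 98.2 under i-BET151. In the 24 h libraries it had 91.9, 91.2 and 78.4, then 123, 133 and 111, and 122, 113 and 111. Its log2 fold change was −0.41 (adjusted p = 0.0266) and 0.01 (0.967) at 4 h and 0.45 (0.00501) and 0.38 (0.0151) at 24 h. The i-BET858 call at 4 h was lost with only the 2 groups (adjusted p = 0.0534) and without DMSO replicates 1 or 2 or i-BET858 replicate 1 (0.0669 to 0.104), and the i-BET151 call at 24 h without i-BET151 replicate 1 (0.0657). ABCF2 fell at 24 h by 0.61 (adjusted p = 0.00759) and 0.59 (0.0114) on the log2 scale. At 4 h it had −0.47 (adjusted p = 0.0554) and −0.42 (0.121), which passed under the replicate block (adjusted p of 0.0157 and 0.0396), and its i-BET151 call at 24 h was lost without DMSO replicate 2 (0.0589). It shares 37.1% of its exon bases with a readthrough gene.

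Of the remaining members, ABCB5, a transporter described on melanoma stem cells, and ABCA4, the retinal flippase, passed at 24 h. ABCB5 had 1.79, 1.21 and 1.15 CPM in DMSO at 24 h, 0.152, 0.139 and 0.146 under i-BET858 and 0.146, 0 and 0 under i-BET151, from 59, 36 and 36 counts against 7, 5 and 5 and 6, 0 and 0. Every treated library was far below every DMSO library. The log2 fold change was −3.25 (−5.26 to −1.24, adjusted p = 0.0144) and −4.65 (−6.88 to −2.42, adjusted p = 0.00483). ABCB5 entered the test at 24 h through DMSO alone, where it was high, so these adjusted p values lend the fall no support of their own. The i-BET858 call was lost without DMSO replicate 1, i-BET858 replicate 1 or i-BET858 replicate 2 (adjusted p of 0.0579 to 0.0653). At 4 h ABCB5 ranged from 0.281 to 1.84 CPM and did not pass. ABCA4 had 3.0, 3.80 and 3.31 CPM in DMSO at 24 h, 4.40, 5.58 and 4.36 under i-BET858 and 2.20, 1.49 and 0.582 under i-BET151. The i-BET151 libraries lay below and the i-BET858 libraries above all DMSO libraries. The change was −1.26 under i-BET151 (−2.12 to −0.40, adjusted p = 0.0293) and 0.46 under i-BET858 (−0.37 to 1.30, adjusted p = 0.357). The i-BET151 call was lost in a fit of only the 2 groups (adjusted p = 0.0640) and without DMSO replicate 2 (0.0851), DMSO replicate 3 (0.0521) or i-BET151 replicate 2 (0.0769). ABCC8, a potassium channel subunit tested at 24 h only, did not pass (2.76, adjusted p = 0.178, and 2.26, adjusted p = 0.293), but passed with replicates 1 and 2 only (2.69, adjusted p = 0.00550, and 2.23, adjusted p = 0.0230). It had reached the level of the filter in treated libraries alone.

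i-BET858 was set directly against i-BET151 at the same dose and time. In the unblocked fit the difference passed edgeR's quasi-likelihood test in 0 of 32 tested members at 4 h and 0 of 31 at 24 h. As only 0.971% and 0.210% of all genes passed, these counts of 0 are no result about the family. At an unadjusted p under 0.05 there were 6 and 8, beside 11.9% and 11.4% of all genes. The difference was above 0 in 24 of 32 members at 4 h (median 0.22 on the log2 scale, 0.02 over all genes) and in 17 of 31 at 24 h (0.09 against −0.01). Its 95% interval lay within a 2-fold difference either way for 18 members at 4 h and 19 at 24 h, and for the others the interval reached past 2-fold in at least 1 direction. ABCB1 differed by 1.65 at 4 h (0.02 to 3.28, adjusted p = 0.411) with 9 of 9 pairs higher, and by 0.31 at 24 h (−0.87 to 1.49). ABCA4 differed by 1.72 at 24 h (0.86 to 2.59, adjusted p = 0.117), and ABCA1 by −0.82 (−1.45 to −0.20, adjusted p = 0.283). ABCF1 differed by −0.35 (−0.58 to −0.13, adjusted p = 0.147) and ABCF3 by −0.42 (−0.69 to −0.15, adjusted p = 0.154) at 4 h. ABCA5 at 24 h had a difference of −0.00 (−0.48 to 0.48) and ABCD3 of 0.09 (−0.20 to 0.39).

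Other fits called differences between the drugs. The replicate block called ABCB1 (1.78, adjusted p = 0.0419), ABCF1 (−0.36, adjusted p = 0.0126) and ABCF3 (−0.42, adjusted p = 0.0155) at 4 h and ABCA4 (1.78, adjusted p = 0.0158) at 24 h. DESeq2 called ABCF1 (adjusted p = 0.0210) and ABCF3 (0.0362) at 4 h and ABCA4 (0.00149) at 24 h. With replicates 1 and 2 only, ABCA4 (1.42, adjusted p = 0.00473), ABCC5 (0.53, 0.00944), ABCC10 (0.40, 0.0241) and ABCA2 (−0.51, 0.0439) passed at 24 h, beside 7.29% of all genes. Replicates 1 and 2 lay closer to each other than to replicate 3, so this setting leaves out part of the spread.

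**Figure D4:**
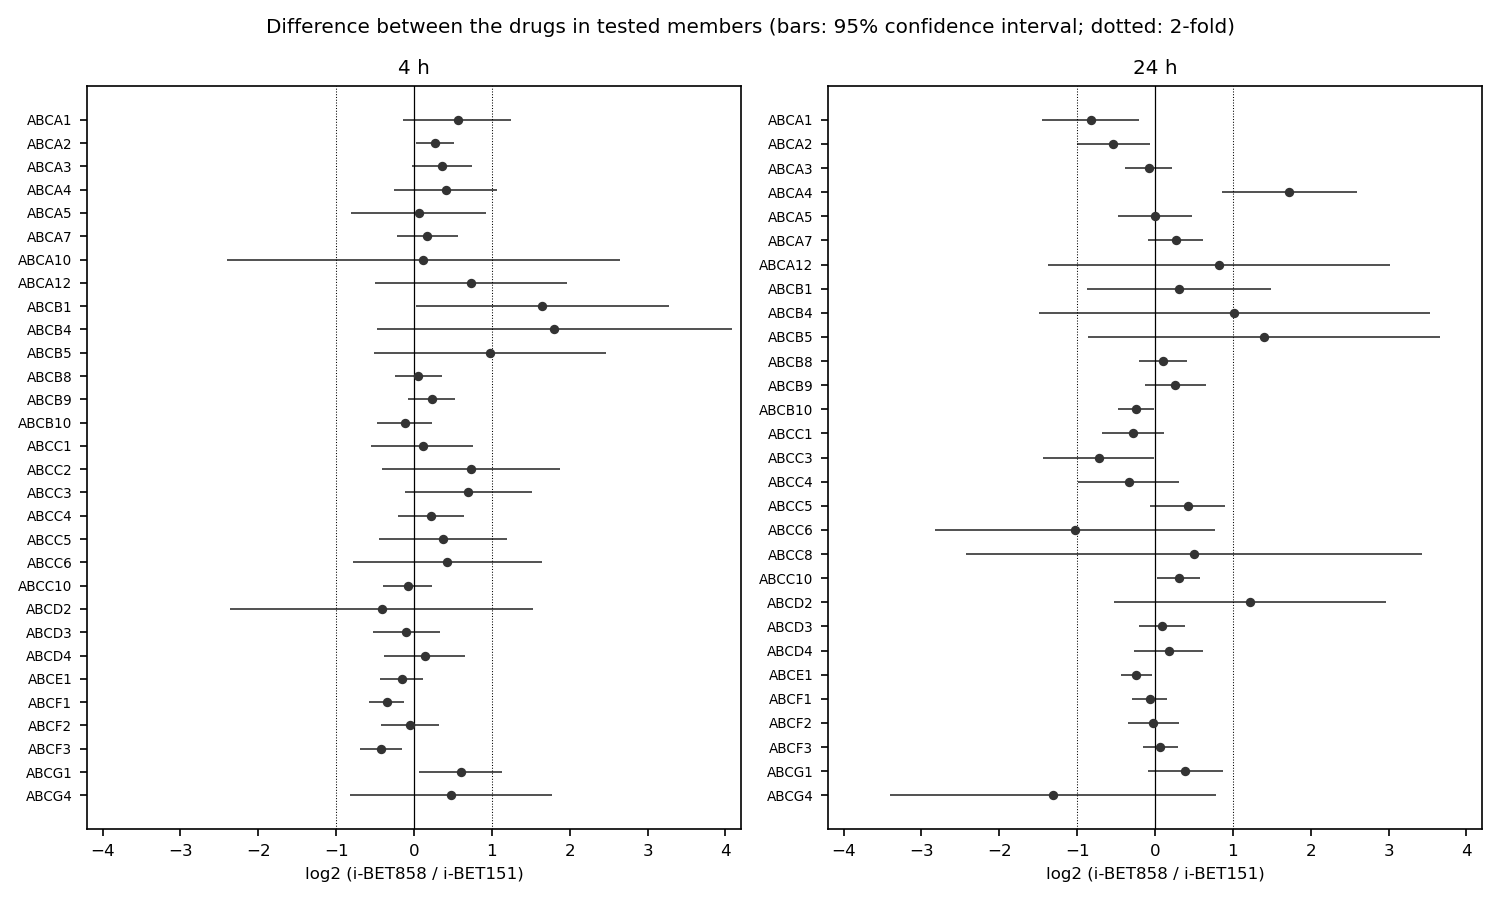
Difference between i-BET858 and i-BET151 (log2 ratio, points) with its 95% confidence interval (bars) for tested members at 4 h (left) and 24 h (right); dotted lines mark a 2-fold difference. No member passed the adjusted test in the unblocked fit, and the intervals of all tested members range from half-widths of 0.20 to 2.93.

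The change of each drug's effect between 4 and 24 h was tested in a fit of all 18 libraries, with 34 members. For i-BET858 it passed in 12, 7 upwards and 5 downwards, beside 27.2% of all 18154 genes tested (14.6% and 12.6%; 15.1% at 2-fold or more). For i-BET151 it passed in 5, 4 upwards and 1 downwards, beside 13.8% (6.99% and 6.82%; 6.70% at 2-fold or more), and in 10 under the replicate block, beside 25.2% of all genes in that fit. The i-BET151 count was 3 without DMSO replicate 2 of 4 h or without i-BET151 replicate 2 of 24 h, beside 9.62% and 8.45%. ABCA2 had the change with the lowest adjusted p for i-BET858 (−1.61, −2.13 to −1.08, adjusted p = 1.39e-04). The change was upwards with both drugs for ABCC10 (1.20, adjusted p = 1.55e-04, and 0.78, adjusted p = 0.0100), ABCA3 (1.09, adjusted p = 0.00170, and 1.5, adjusted p = 4.21e-04), ABCA5 (1.77, adjusted p = 0.0120, and 1.81, adjusted p = 0.0207) and ABCF1 (0.86, adjusted p = 2.36e-04, and 0.54, adjusted p = 0.0163). No such change passed for ABCB1 (−0.36, −2.87 to 2.15, and 0.95, −1.77 to 3.67), ABCG1 (−0.11, −0.82 to 0.59, and 0.07, −0.63 to 0.77) or ABCE1 (−0.10, −0.41 to 0.21, and −0.03, −0.35 to 0.28). Between the DMSO libraries of 24 h and 4 h, 0 of 34 members passed in edgeR and 0 in DESeq2, beside 0.0386% and 1.12% of all genes. At an unadjusted p under 0.05 in edgeR there were 3, beside 9.17% of all genes.

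**Figure D5:**
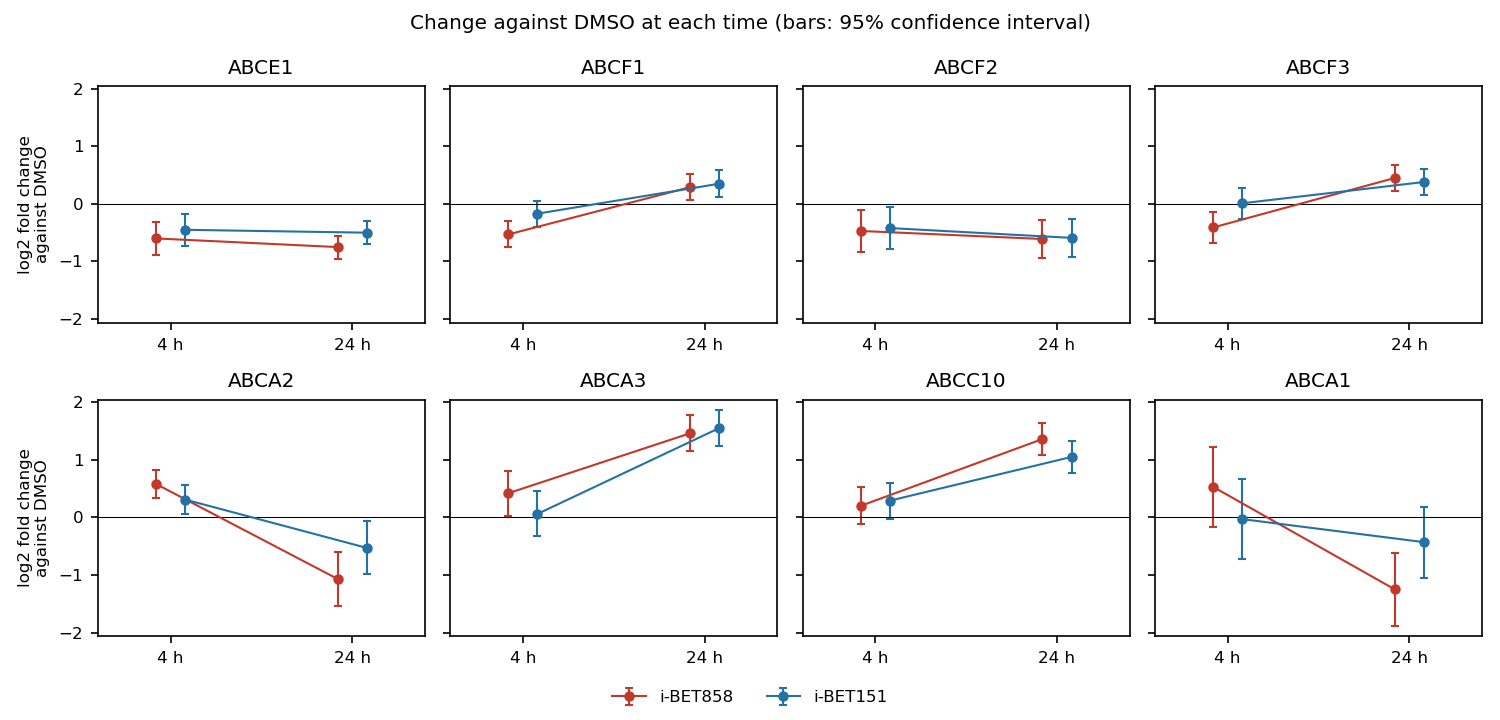
Log2 fold change against DMSO at 4 and 24 h (points, with 95% confidence intervals as bars) for 8 members, red i-BET858 and blue i-BET151. ABCE1 and ABCF2 stay below 0, ABCF1 and ABCF3 go from below or near 0 to above it, ABCA3 and ABCC10 are higher at 24 h, and ABCA2 goes from above 0 to below it.

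Lists of related genes were counted in the same fits, in which 30.8% and 16.2% of all genes were called at 4 h and 41.7% and 33.8% at 24 h (i-BET858 first). By direction, i-BET858 had 14.5% higher and 16.3% lower at 4 h and 20.5% and 21.3% at 24 h, and i-BET151 had 7.81% and 8.43%, then 17.2% and 16.6%. Of 15 sterol and liver X receptor genes, all tested, 5 rose and 3 fell under i-BET858 at 4 h and 4 and 3 at 24 h, against 2 and 1 and then 3 and 3 under i-BET151. MYLIP, which degrades the LDL receptor, rose under i-BET858 at 4 h (28.3 ± 3.27 to 72.1 ± 5.90 CPM, log2 fold change 1.35, adjusted p = 9.18e-05), and the cholesterol exporters of the lysosome NPC1 and NPC2 rose at 24 h (1.04, adjusted p = 3.18e-04, and 1.01, adjusted p = 9.17e-05). Of 11 genes of drug transport outside the family, 10 were tested. Under i-BET858 1 rose and 0 fell at 4 h, and 0 rose and 5 fell at 24 h. Under i-BET151 none passed at 4 h and 4 fell at 24 h. SLC19A1, which takes up folate and methotrexate, fell at 24 h from 46.8 ± 12.0 CPM to 10.8 ± 0.594 under i-BET858 (−2.16, adjusted p = 2.64e-05) and 15 ± 3.61 under i-BET151 (−1.66, adjusted p = 2.16e-04). MVP, the major vault protein, fell from 17.2 ± 3.07 CPM to 7.42 ± 0.476 (−1.25, adjusted p = 1.27e-04) and 7.39 ± 0.239 (−1.24, adjusted p = 2.16e-04). These values are means ± SD of 3 libraries.

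The same shares of all genes (30.8% and 16.2% at 4 h, 41.7% and 33.8% at 24 h) stand beside the next 2 lists. Of 8 regulators of xenobiotic and stress responses, 7 were tested, with 3 higher and 1 lower under i-BET858 at 4 h and 2 and 2 at 24 h, and with 2 and 0 and then 2 and 1 under i-BET151. AHR, the aryl hydrocarbon receptor, rose in all 4 comparisons, with log2 fold changes of 1.46 (adjusted p = 2.66e-05) and 1.06 (5.85e-04) at 4 h and 1.46 (1.03e-05) and 1.18 (7.21e-05) at 24 h. NR1I3, the constitutive androstane receptor, fell under i-BET858 at 24 h from 1.20 ± 0.237 to 0.138 ± 0.0842 CPM (SD, n = 3), a log2 fold change of −3.16 (edgeR, adjusted p = 0.00344). Of 10 partners of ABC proteins, 9 were tested, with 0 higher and 4 lower under i-BET858 at 4 h and 2 and 4 at 24 h, and with 0 and 3 and then 1 and 3 under i-BET151. MMACHC, which takes over vitamin B12 released from lysosomes by ABCD4, fell in all 4, by 1.65 (adjusted p = 1.21e-04) and 1.34 (0.00106) on the log2 scale at 4 h and by 2.06 (1.31e-05) and 1.20 (5.34e-04) at 24 h. KCNJ11, the channel pore that pairs with ABCC8, fell under i-BET858 at both times (−1.27, adjusted p = 0.0213, and −1.64, adjusted p = 0.00473) and under i-BET151 at 4 h (−1.18, adjusted p = 0.0486). The latter was lost when any 1 library of the comparison was left out (adjusted p of 0.0515 to 0.189), and the i-BET858 call at 4 h without the filter (0.0605) and without DMSO replicates 1 or 2 or i-BET858 replicates 1 or 2 (0.0542 to 0.0990).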

How the data were processed

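The 18 libraries were paired-end reads of poly-A transcripts. Per the labels and methods, the authors used STAR for alignment to GRCh38 and for counting reads per gene, and the deposited values are these raw counts. The annotation and the strand setting are not given in the sources used here. Symbols, positions and exon lengths were taken from GENCODE 44 (58472 of 58825 genes matched, 99.4%). The quasi-likelihood test of edgeR 4.0.16 (R 4.3.3) was run on the 9 libraries of each time and, for the change between times, on all 18, after TMM scaling and filterByExpr, with Benjamini-Hochberg adjustment over all genes tested (threshold 0.05). CPM use TMM library sizes, and RPKM divide them by the kilobases of all annotated exons. The family and so its members, the lists and the roles were chosen with earlier results of these data known. Values of some members are not reported here. Members given library by library were ABCB1, ABCC1, ABCG2 and those past the threshold with at least 2-fold in a drug comparison (19 in all). ABCE1, ABCF1 and ABCF3 were added to these after their values were seen, as was ABCB4. Of related genes, those past the threshold with at least 2-fold could be named.

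The study's text calls the replicates biological. Libraries with the same replicate number deviated together (correlations across genes of 0.127 to 0.345 at 4 h and 0.143 to 0.329 at 24 h, against −0.310 to 0.214 and −0.302 to 0.284 for other numbers). As every same-numbered pair was above 0.1, the numbers were taken to pair the libraries, from the data and not from the labels. The counts and values given first come from the unblocked fit, which leaves this pairing out. Only the replicate block takes it in. The pairing mainly sets replicate 3 apart, since replicates 1 and 2 also correlated across numbers at 24 h (0.181 to 0.284). In each group replicates 1 and 2 lay closer to each other than to replicate 3. In DMSO at 24 h, chi-square per degree of freedom over genes was 4.19 between them, against 66.1 and 56.1 with replicate 3. Fits of replicates 1 and 2 only called 60.7% (i-BET858) and 54.2% (i-BET151) of all genes against DMSO at 24 h. Their adjusted p values leave out the spread that replicate 3 adds. Alternatives were DESeq2 1.42.0, DESeq2 size factors or total library size in edgeR, no filter, at least 10 counts in every library, the replicate block, replicates 1 and 2 only, a fit of only the 2 groups, each library left out, and a 2-fold threshold. In bulk RNA, fewer cells and less RNA per cell cannot be told apart.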

Additional observations from a re-analysis of the deposited data

Results flagged for a closer look

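The change of a drug's effect against DMSO from 4 to 24 h passed the test of the interaction in 17 cases, given here as log2 differences (24 h minus 4 h). Under i-BET858 the effect went down for ABCA1 (−1.74), ABCA2 (−1.61), ABCB5 (−3.02), ABCC3 (−1.83) and ABCC4 (−1.15). It went up for ABCA3 (1.09), ABCA5 (1.77), ABCA7 (0.76), ABCC10 (1.20), ABCD3 (0.91), ABCF1 (0.86) and ABCF3 (0.90). Under i-BET151 it went down for ABCA2 (−0.83) and up for ABCA3 (1.5), ABCA5 (1.81), ABCC10 (0.78) and ABCF1 (0.54). ABCA2, ABCF1 and ABCF3 are the members that passed in opposite directions at the 2 times under i-BET858. Leaving out 1 library at a time, or another setting, ended the calls of ABCA2 under i-BET151 (adjusted p of 0.0638 to 0.107 without DMSO replicates 1 or 2 or i-BET151 replicate 1 of 4 h, or without DMSO replicates 1 or 2 or i-BET151 replicates 1 or 2 of 24 h), ABCA5 under i-BET858 (0.0534 without DMSO replicate 2 of 4 h) and under i-BET151 (0.0539 to 0.0792 without DMSO replicate 2 of 4 h, DMSO replicate 3 of 24 h or i-BET151 replicate 2 of 24 h), and ABCF1 under i-BET151 (0.0659 without the filter on low counts). Under i-BET858 they ended those of ABCA7 (0.0601 to 0.0771) and ABCC4 (0.0547 to 0.0643), each without DMSO replicate 2 or i-BET858 replicate 3 of 4 h, or without DMSO replicate 3 or i-BET858 replicates 1 or 2 of 24 h, and ABCB5 (0.0502 with replicates 1 and 2 only, 0.0516 with total library size and 0.0526 to 0.121 without any 1 DMSO or i-BET858 library other than i-BET858 replicate 2 of 4 h). The other 10 changes over time passed at an adjusted p under 0.05 in every alternative fit that gave them a value, but at the 2-fold threshold ABCD3, ABCF1 and ABCF3 under i-BET858 and ABCC10 under i-BET151 did not pass.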

How the results depend on the processing

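Groups of 3 libraries and low counts limit the members near 0 (ABCB1, ABCB5, ABCC2, ABCD2). Counts of members called are given as in the report first. With the replicate block they were 18 (from 12) for i-BET858 and 13 (from 7) for i-BET151 at 4 h, 22 and 22 (from 21 and 19) at 24 h, 3 and 2 (from 0) between the drugs, 13 and 10 (from 12 and 5) for the change over time, and 0 in DMSO. Calls over all genes rose in the same fits, to 45.4% and 32.7% at 4 h, 52.0% and 45.9% at 24 h, 9.63% and 4.37% between the drugs, 38.3% and 25.2% for the change over time and 2.07% in DMSO. The calls the block added for named members are given beside them, except ABCB10 in the change over time (0.45, adjusted p = 0.0493, and 0.54, 0.0266) and, for i-BET151, ABCD3 (0.68), ABCF3 (0.39), ABCB5 (−3.63) and ABCA7 (0.67). It changed no other call of a named member. With replicates 1 and 2 only, the counts were 12 for i-BET151 at 4 h, 5 between the drugs at 24 h and 11 for the change of the i-BET151 effect, beside 25.9%, 7.29% and 26.3% of all genes. This setting also called the change over time of ABCB8 (0.49) and ABCC6 (−1.75) under i-BET858 and of ABCD4 (−0.42), ABCC6 (−2.42) and ABCA10 (−3.57) under i-BET151. At 2-fold they were 7 and 4 at 4 h, 10 for i-BET151 at 24 h and 2 for the change of the i-BET151 effect. Between the drugs, DESeq2 gave 2 and 2 (4.43% and 3.19% of all genes), total library size 1 at 4 h (ABCF1, 1.93%) and no filter 1 at 24 h (ABCA4, 1.08%). Leaving out 1 library at a time gave 10 to 15 (i-BET858) and 4 to 7 (i-BET151) at 4 h, 18 to 20 and 14 to 20 at 24 h, 0 between the drugs and in DMSO, 8 to 12 and 3 to 7 for the change over time, and 15 to 17 and 16 to 17 members above 1 RPKM. The shares of all genes in these fits were 23.2% to 30.3% and 9.44% to 16.0% at 4 h, 32.7% to 39.1% and 23.8% to 31.7% at 24 h, 0% to 0.250% between the drugs at 4 h and 0.00558% to 0.0508% at 24 h, 21.5% to 25.7% and 8.45% to 12.8% for the change over time, and 0% to 0.0106% in DMSO. Uncalled values that turned sign when 1 library was left out are given by their range over those fits. At 4 h they were ABCA1 (−0.32 to 0.13), ABCA4 (−0.31 to 0.03) and ABCF3 (−0.05 to 0.07) under i-BET151, and ABCB5 (−0.76 to 0.25), ABCC3 (−0.05 to 0.53) and ABCC4 (−0.31 to 0.03) under i-BET858. At 24 h they were ABCC1 (−0.28 to 0.05) and ABCD4 (−0.24 to 0.03) under i-BET151 and ABCD4 under i-BET858 (−0.09 to 0.28). ABCD4 under i-BET858 at 24 h (−0.02) and ABCF3 under i-BET151 at 4 h (−0.05) also turned with total library size, as ABCF3 (−0.04) and, under i-BET858 at 4 h, ABCB4 (−0.07) did with replicates 1 and 2 only. Total library size moved the median of all genes under i-BET858 at 4 h from 0.02 to −0.14. ABCC3 under i-BET151 at 24 h was also lost without the filter (adjusted p = 0.0829) and with only the 2 groups (0.0694). The causes of these differences were not tested.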
